A study of Mus musculus with 21 samples.

Results

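Hypoxia and glycolysis genes were followed in the mouse prostate cancer line Myc-CaP, in cells with and without IRE1α and in the tumours these cells formed. The genes are a fixed list of 41 symbols, found by gene name among the 45706 genes of the deposited table, and all 41 were present. By role the list holds 5 HIF factors and oxygen sensors, 3 glucose and lactate transporters, 16 glycolytic enzymes and 17 other targets of the hypoxia-inducible factors (HIF). IRE1α, encoded by Ern1, is a sensor of unfolded protein in the endoplasmic reticulum. Polyadenylated RNA was sequenced in 21 libraries. The groups were WT cells and the knockout lines KO1, KO2 and KO3 grown in culture, with 2 libraries each, and tumours of the same lines, with 4 libraries for WT and 3 for each knockout line. The knockout lines were made with CRISPR-Cas9 and the same guide RNA against IRE1α. The labels do not say whether a line is a clone, nor do they name separate cultures for the 2 libraries of a line, and p-values in cells then reflect only the spread between these libraries, which may be technical. WT is 1 line, so a difference between WT and the knockout lines cannot be told apart from a difference between 1 line and others. Tumours came from FVB mice, whose age and sex are not given here.

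Cells in air keep HIF low: prolyl hydroxylases such as Egln1 and Egln3 mark the HIF alpha subunits, Hif1a and Epas1, for destruction, and when oxygen is short the alpha subunits pair with Arnt and bind DNA at a short core sequence, the hypoxia response element. Their targets take up glucose, turn it into lactate, divert pyruvate from the mitochondria, start mitophagy and call in vessels. Many enzymes of glycolysis are such targets, but they are also transcribed at a high basal level in dividing cells, and in tumours HIF targets are best known as signs of poorly perfused tissue.

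Short upstream stretches are shown for 7 members on which the results below turn, with the letters of the element in capitals. They are from RefSeq (GRCm38.p6) and lie wholly upstream of an annotated start. Capitals mark ACGTG or GCGTG, searched on both strands, so that CACGT and CACGC are the same motifs read on the other strand. A CACGTG is counted on both strands and is also an E-box, which other factors bind.
Bnip3: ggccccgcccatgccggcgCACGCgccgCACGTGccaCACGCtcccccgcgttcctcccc
Pgk1: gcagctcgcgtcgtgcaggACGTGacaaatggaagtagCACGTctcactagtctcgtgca
Ldha: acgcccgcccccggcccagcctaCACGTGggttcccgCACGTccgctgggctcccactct
Slc2a1: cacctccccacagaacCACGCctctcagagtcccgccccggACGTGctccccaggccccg
Higd1a: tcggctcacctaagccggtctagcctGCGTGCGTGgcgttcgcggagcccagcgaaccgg
Adm: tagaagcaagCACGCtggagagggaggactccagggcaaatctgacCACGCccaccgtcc
Ankrd37: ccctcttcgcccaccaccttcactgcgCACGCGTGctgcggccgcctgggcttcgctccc

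The Bnip3 stretch (gene ENSMUSG00000078566) is chr7:138909583-138909642 on the minus strand, 136 to 77 bases upstream of the start, with 4 matches. The Pgk1 stretch (ENSMUSG00000062070) is chrX:106186931-106186990 on the plus strand with 2 matches, and the Ldha stretch (ENSMUSG00000063229) is chr7:46845733-46845792 on the plus strand with 3 matches. The Slc2a1 stretch (ENSMUSG00000028645) is chr4:119108668-119108727 on the plus strand, and the Higd1a stretch (ENSMUSG00000038412) is chr9:121857833-121857892 on the minus strand. The Adm stretch (ENSMUSG00000030790) is chr7:110627557-110627616 on the plus strand, and the Ankrd37 stretch (ENSMUSG00000050914) is chr8:45999973-46000032 on the minus strand. RefSeq promoters, 250 bases before to 50 after a start, were matched for 36 members in 55 windows, and not for Epas1, Slc2a3, Bnip3l, Ndrg1 and Ndufa4l2. Of the 36 members, 33 held either motif in a window and 25 held ACGTG. Among 10132 genes tested in tumours and matched in the same way, 6745 held either motif and 2922 held ACGTG. The members had 55 windows for 36 genes, against 12895 windows for those 10132. More windows per gene give more chances of a match. Per window, either motif was found in 80.0% of the members' windows, in 60.7% of the windows of genes tested in tumours and in 43.8% of all 32851 windows. For ACGTG the shares were 50.9%, 24.9% and 19.6%, and GCGTG was in 33 of the members' 55 windows, against 49.4% and 32.4%. A pair of matches can share bases, as in Higd1a and Ankrd37. A match describes letters and not binding, and the windows of a gene with several starts overlap.

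Exons of Slc2a1, Bnip3 and Higd1a overlap an antisense gene and those of Ankrd37 overlap Lrp2bp and Ufsp2 on the other strand; the kit marks strand, but whether counting used it is not given in the sources used here, so reads of these pairs may not be told apart. Library totals ranged from 18105538 to 25068254 estimated counts in cells and from 15994285 to 27497796 in tumours. Ern1 was at 118 and 133 CPM (counts scaled to the size of the library) in WT cells and at 171 to 196 CPM in the 6 KO cell libraries, so the transcript of the targeted gene was not lower. In tumours it was at 64.7 to 84.0 CPM in WT and at 60.4 to 92.1 CPM in KO. Its RNA level does not show whether protein is made and does not check the labels. Of the epithelial markers, Epcam was at 0 in every cell library. Tumours also held RNA of the host: the summed level of 8 fibroblast markers was at most 20.3 CPM in cells and at least 449.6 CPM in tumours.

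In cultured cells, 13 of the 34 members that passed the filter on low counts fell in KO and 0 rose at an adjusted p under 0.05 (edgeR quasi-likelihood test, KO libraries of all lines against WT). Over all 12254 genes tested, 9.76% were called lower and 4.99% higher. The fold change was negative for 30 of the 34, with a median log2 fold change of -0.42, against 0.02 over all genes. The members not tested in cells were Egln3, Slc2a3, Slc16a3, Eno2, Adm, Ndrg1 and Ndufa4l2, which had few or no counts there. Leaving out a WT library leaves a single one in that group, which weakens the test for any gene. The share of all genes called in fits without a library is not given here. The next counts are therefore not read as particular to the members. The call rested on the WT pair: 2 members were called without WT cells replicate 1 (Aldoc and Slc2a1), 2 without WT cells replicate 2 (Aldoc and Higd1a), and 22 without KO3 cells replicate 2. With the libraries of each line summed, 0 members passed in edgeR, and 12 had an unadjusted p under 0.05.

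Among the factors, Hif1a, the alpha subunit held down by oxygen, was at 163 and 167 CPM in WT cells, 193 and 192 in KO1, 218 and 199 in KO2 and 169 and 168 in KO3. KO1 and KO2 were above WT, and KO3 lay just above the higher WT library. Pooled over lines the log2 difference was 0.20 ± 0.11 (SE), with an adjusted p of 0.223 in edgeR. Epas1, which encodes HIF-2α, was near its limit of detection, at 1.41 and 0.945 CPM in WT cells and at 0 to 0.267 CPM in the KO cells, and fell by 2.83 ± 0.55 on the log2 scale (edgeR adjusted p = 0.00875). It passed the filter on low counts through the WT libraries alone. Its call, counted among the members that fell, therefore describes presence against near absence. Arnt, the partner of both, was at 92.0 and 89.3 CPM in WT cells, 67.5 and 75.1 in KO1, 76.8 and 75.2 in KO2 and 67.4 and 70.7 in KO3, and fell by 0.33 ± 0.08 (adjusted p = 0.0198 in edgeR). No KO library reached a WT library for either gene. Egln1, the main oxygen sensor, was at 86.2 and 88.5 CPM in WT cells, at 55.3 to 63.9 CPM in KO1 and KO2 and at 77.2 and 80.9 CPM in KO3.

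Slc2a1, the glucose transporter GLUT1, was at 129 and 142 CPM in WT cells, 102 and 98.3 in KO1, 101 and 103 in KO2 and 95.2 and 101 in KO3. The 6 KO libraries lay close together and below both WT libraries. Slc2a1 fell by 0.44 ± 0.07 (edgeR adjusted p = 0.00279). Of the 15 glycolytic enzymes tested, each had a negative fold change and 5 fell: Aldoc, Pkm, Pgk1, Pgam1 and Hk2. Aldoc, a minor aldolase, was at 58.4 and 57.7 CPM in WT cells, 26.95 and 27.09 in KO1, 22.9 and 19.5 in KO2 and 29.4 and 31.2 in KO3, a fall of 1.15 ± 0.14 (edgeR adjusted p = 0.000878). It was called without any 1 of the 8 libraries. Pkm, the pyruvate kinase, was at 4616 and 4377 CPM in WT cells, 2557 and 2384 in KO1, 2169 and 2201 in KO2 and 3171 and 3114 in KO3, and fell by 0.79 ± 0.16 (edgeR adjusted p = 0.00959). Pgk1, phosphoglycerate kinase, was at 2942 and 2845 CPM in WT cells, 1973 and 1922 in KO1, 1781 and 1817 in KO2 and 2174 and 2372 in KO3, and fell by 0.53 ± 0.12 (edgeR adjusted p = 0.0169). For these 3 enzymes every KO library was below both WT libraries, and KO3 was the highest KO line. Reads of the close copy Pgk1-rs7 amounted to 7.53% of the Pgk1 count and those of Eno1b to 15.5% of the Eno1 count, so these levels depend on how reads were shared out. Pgam1, phosphoglycerate mutase, was at 1041 and 1040 CPM in WT cells, 664 and 628 in KO1, 708 and 682 in KO2 and 828.8 and 829.3 in KO3, again with KO3 between WT and the other lines. Hk2, the hexokinase of many tumours, was at 172 and 170 CPM in WT cells and at 130 to 155 CPM in the 6 KO libraries, which all lay below WT. It fell by 0.28 ± 0.08 (edgeR adjusted p = 0.0391), and was called in 9 of 19 alternative settings; it was lost without WT cells replicate 1 or 2, KO1 cells replicate 1 or KO2 cells replicate 1. The median log2 fold change of the 15 enzymes was -0.50. Ldha, Pfkl, Tpi1, Aldoa, Gpi1, Eno1 and Gapdh, which carry most of the remaining steps, were at -0.62 to -0.37 without passing, with adjusted p from 0.0599 for Gapdh to 0.157 for Ldha in edgeR. Hk1, Pfkp and Pfkm were nearer to 0, at -0.18, -0.13 and -0.10.

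Among the 14 other HIF targets tested, 5 fell, with a median log2 fold change of -0.33. Ak4, a mitochondrial adenylate kinase, fell by 0.44 ± 0.09, P4ha1, a subunit of collagen prolyl hydroxylase, by 0.50 ± 0.10, and Higd1a, a mitochondrial protein induced by hypoxia, by 0.52 ± 0.11 (edgeR adjusted p = 0.0106, 0.0113 and 0.0114). Ak4 was at 74.3 and 79.1 CPM in WT cells, 50.1 and 58.2 in KO1, 59.4 and 53.9 in KO2 and 56.1 and 62.5 in KO3. Higd1a was at 51.0 and 39.8 CPM in WT cells, 30.9 and 28.5 in KO1, 29.7 and 32.1 in KO2 and 34.7 and 34.1 in KO3. The KO lines lay close together for both genes, and the WT libraries of Higd1a were farther apart than the KO lines. Pdk1, the kinase that keeps pyruvate out of the citrate cycle, was at 44.2 and 48.0 CPM in WT cells, 26.8 and 29.0 in KO1, 29.2 and 27.4 in KO2 and 35.7 and 36.6 in KO3. P4ha1 was at 75.5 and 82.4 CPM in WT cells, 55.2 and 55.1 in KO1, 52.9 and 48.3 in KO2 and 61.1 and 63.4 in KO3. For both genes each KO library lay below both WT libraries, and Pdk1 fell by 0.58 ± 0.13 (edgeR adjusted p = 0.0154). Bnip3, a mitophagy receptor, was at 207 and 230.5 CPM in WT cells, at 97.2 to 122 CPM in KO1 and KO2 and at 168 and 176 CPM in KO3. Its pooled fall of 0.76 ± 0.22 (edgeR adjusted p = 0.0442) was called in 7 of 19 alternatives and was lost without any 1 library of WT, KO1 or KO2. Vegfa, the main angiogenic factor, went the other way, at 40.9 and 43.9 CPM in WT cells, 56.6 and 60.4 in KO1, 60.5 and 60.4 in KO2 and 49.8 and 46.1 in KO3. Its log2 difference of 0.39 ± 0.12 did not pass (edgeR adjusted p = 0.0561). Kdm3a, a histone demethylase, was at 0.07, Pdk3 at 0.02, Pfkfb3, a kinase that makes the activator of phosphofructokinase, at -0.02 and Ankrd37 at -0.01.

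The 3 KO lines did not share 1 pattern in culture. Fitted line by line against the same WT libraries, 25 members fell and 2 rose in KO1 (20.5% of all genes were called lower and 17.7% higher), 27 fell and 2 rose in KO2 (20.2% and 17.4%), and 13 fell and 0 rose in KO3 (14.1% and 10.4%). Over the 34 members the median log2 fold change was -0.51 for KO1, -0.55 for KO2 and -0.16 for KO3. Of the 15 enzymes, 13 fell in KO1 and 14 in KO2, with medians of -0.61 and -0.67, and 5 fell in KO3, with a median of -0.17. Of the 14 other targets, 8 fell in KO1, 9 in KO2 and 5 in KO3. These comparisons share the 2 WT libraries. The count in KO3 was the least steady: it was 8 without WT cells replicate 1, 6 without WT cells replicate 2, 4 without KO3 cells replicate 1 and 8 without KO3 cells replicate 2.

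The differences among the KO lines, which do not rest on the WT level, were tested by an F test over the 3 lines (edgeR). They passed for 21 of 34 members, against 30.3% of all genes. In cells and tumours, an adjusted p beside a difference of KO3 from the mean of KO1 and KO2 is that of the F test. It does not belong to that single difference. The level in KO3 was above the mean of KO1 and KO2 for 19 of the 21 and below it for 2, whereas over all genes 15.7% were called with KO3 higher and 14.6% with KO3 lower. Ldha, lactate dehydrogenase A, was at 1594 and 1614 CPM in WT cells, 838 and 874 CPM in KO1, 824 and 736 CPM in KO2 and 1395 and 1596 CPM in KO3. KO1 and KO2 lay far below WT and KO3, and the KO3 and WT ranges overlapped. KO3 was higher than the mean of KO1 and KO2 by 0.87 ± 0.08 on the log2 scale (edgeR adjusted p = 2.87e-05). Pfkl, the liver form of phosphofructokinase, was at 317 and 299 CPM in WT cells, 161 and 185 in KO1, 164 and 174 in KO2 and 276 and 300 in KO3, so KO3 again overlapped WT. The difference was 0.75 ± 0.07 (edgeR adjusted p = 3.62e-05). Car9, a membrane carbonic anhydrase and a standard hypoxia marker, was at 4.27 and 4.25 CPM in WT cells, 2.21 and 1.45 CPM in KO1, 0.994 and 1.02 CPM in KO2 and 4.08 and 3.58 CPM in KO3, a difference of 1.5 ± 0.20 (edgeR adjusted p = 0.000447). Bnip3 differed by 0.67 ± 0.08 and P4ha2, the second collagen prolyl hydroxylase subunit, by 0.71 ± 0.08 (edgeR adjusted p = 0.000369 and 0.000183). Egln1 was also higher in KO3 (0.43 ± 0.07, edgeR adjusted p = 0.00214).

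Hif1a and Vegfa ran against the rest. Hif1a rose by 0.22 in KO1 and by 0.34 in KO2 and differed from WT by 0.03 in KO3, and KO3 was lower than the mean of the other lines by 0.25 ± 0.06 (log2 -0.25, edgeR adjusted p = 0.0124). Vegfa rose by 0.46 in KO1 and by 0.51 in KO2 and differed by 0.18 in KO3, where it was lower than in the other lines (log2 -0.31 ± 0.07, edgeR adjusted p = 0.0154). The Vegfa calls of KO1 and KO2 were lost in the deposited table scaled by transcript length. For some members no difference among lines was detected. Slc2a1 differed from WT by -0.44 in KO1, -0.40 in KO2 and -0.47 in KO3, and KO3 minus the others was -0.05 ± 0.06 (edgeR adjusted p = 0.778). Arnt, Ak4, Higd1a and Hk2 also fell in each line without a difference among lines passing the test. Without KO3 cells replicate 2 the differences passed for 13 members. The summed level of 7 erythroid markers moved with the same lines: 198 and 171 CPM in WT cells, 39.8 to 57.8 CPM in KO1 and KO2 and 131 to 156 CPM in KO3, with Hbb-bs, Hbb-bt and Alas2 at 0 in each group of cells. Its part in the result was not tested.

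**Figure D1:**
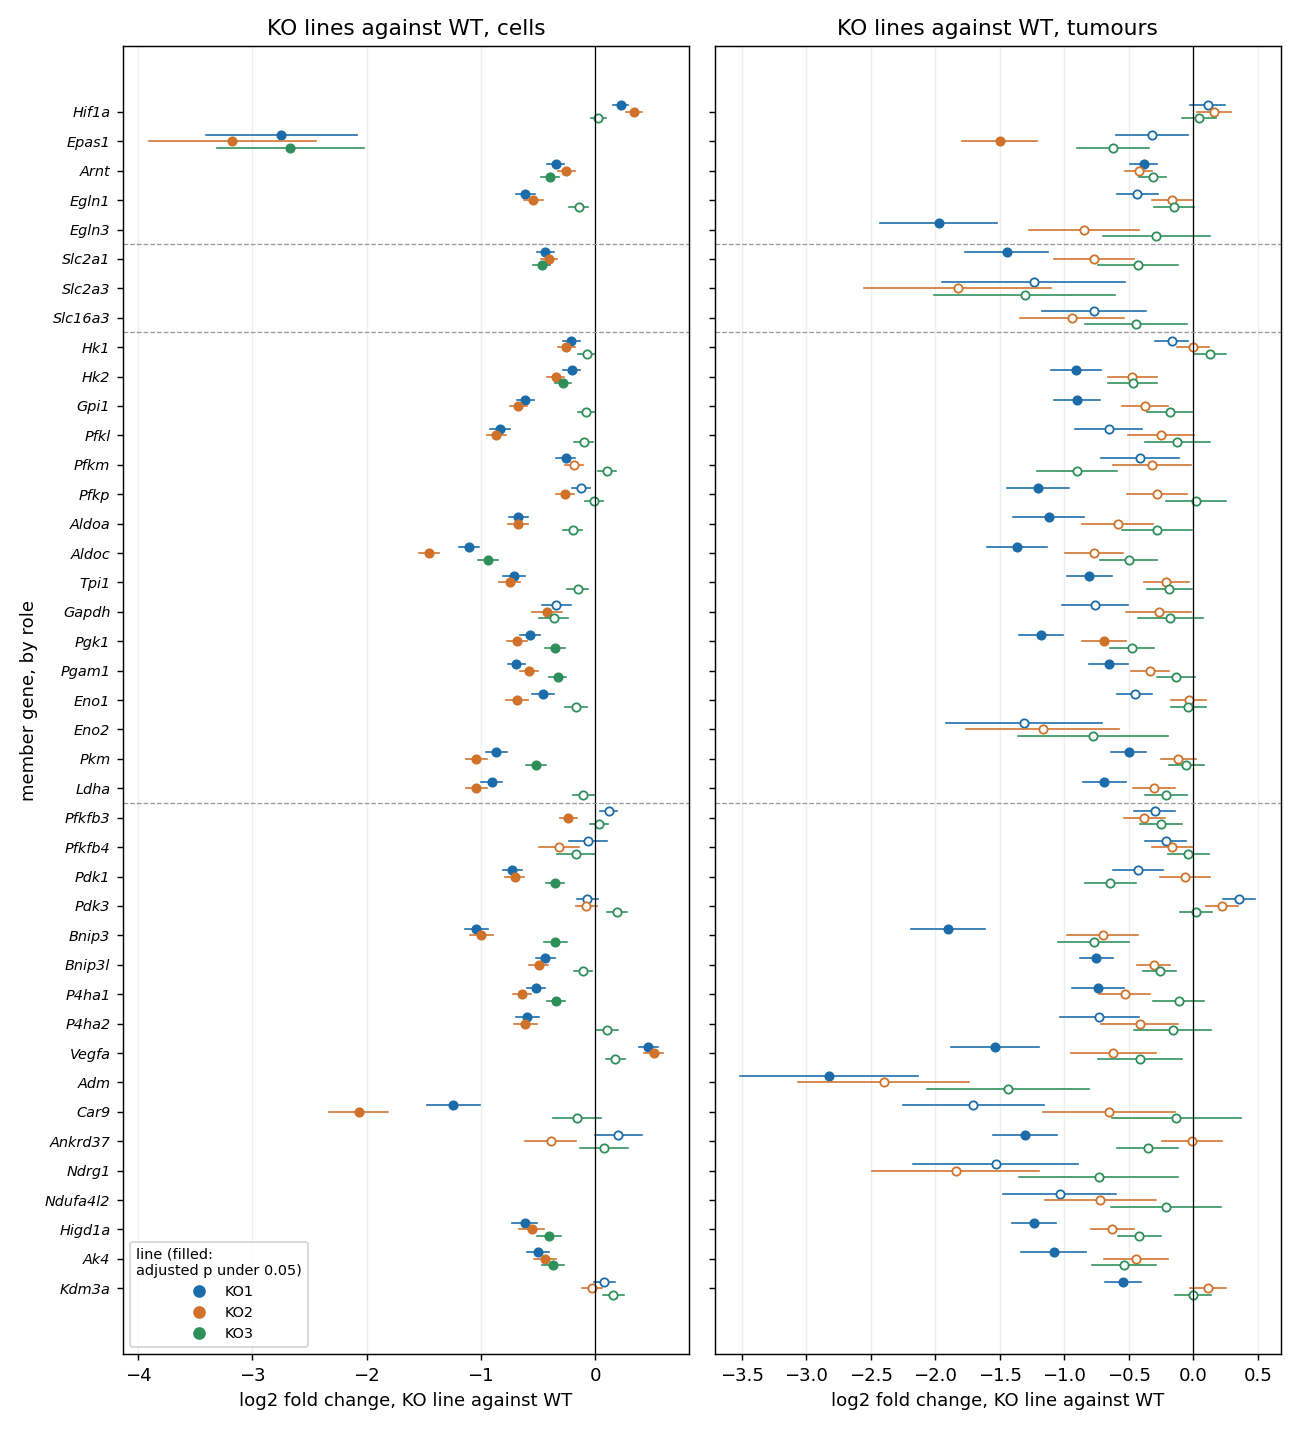
Log2 fold change of each member in KO1, KO2 and KO3 against WT (points, with bars of 1 standard error), in cells on the left and tumours on the right, ordered by role. In cells KO3 lies nearer to 0 than KO1 and KO2 for Ldha, Pfkl, Bnip3 and Car9, whereas the lines coincide for Slc2a1; in tumours KO1 lies farthest below 0 for Bnip3, Pgk1 and Higd1a.

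Tumours were compared with cells of the same genotype. A member with almost no counts in cells passes the filter through the tumours and has to be higher there, so the counts given first are of the 34 members that were also tested in cells, a choice made after seeing the data. Of these, 5 rose and 11 fell in WT tumours against WT cells (edgeR), while 20.1% of genes tested in cells were called higher and 24.9% lower. In KO tumours against KO cells, with the line as a term, 6 rose and 15 fell, against 35.6% higher and 37.6% lower. Epas1, tested in cells through the WT libraries alone, is among those that rose in both comparisons. Tumours hold host cells as well, and in such bulk samples fewer cells of a type and less RNA per cell cannot be told apart. Of the 15 enzymes, 8 fell and 0 rose in each comparison, with median log2 differences of -0.42 in WT and -0.29 in KO. Of the 14 other targets, 4 rose in WT (Pfkfb4, Higd1a, Ankrd37 and Bnip3) and 1 fell, and in KO 5 rose, 35.7% of the 14 and close to the share over all genes, and 4 fell. The median over genes tested in cells was -0.02 in WT and -0.01 in KO. Over all 41 members 12 rose and 11 fell in WT, against 29.8% and 21.3% of all genes tested, and 13 rose and 15 fell in KO, against 43.8% and 32.8%. The WT count of 23 over all members was 13 without WT cells replicate 1 and 14 without WT cells replicate 2.

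Aldoc fell most among the enzymes, from 58.4 and 57.7 CPM in WT cells to 14.9 to 19.6 CPM in WT tumours, by 1.67 ± 0.13 on the log2 scale (edgeR adjusted p = 0.000141). Pgk1 was at 1253 to 1758 CPM in WT tumours against 2942 and 2845 in WT cells, a fall of 0.91 ± 0.15 (edgeR adjusted p = 0.00238). The groups did not overlap for either gene. In KO the falls were 1.35 ± 0.16 for Aldoc and 1.12 ± 0.12 for Pgk1. Among targets, Pfkfb4, which makes the activator of phosphofructokinase, was at 4.36 and 5.41 CPM in WT cells and 14.7 to 25.5 CPM in WT tumours. It rose by 2.11 ± 0.25 in WT (edgeR adjusted p = 0.000678) and by 2.18 ± 0.09 in KO. Higd1a rose by 1.32 ± 0.17 in WT (edgeR adjusted p = 0.000886) and by 1.11 ± 0.12 in KO. No change was detected in WT for Slc2a1, with a log2 difference of -0.04 ± 0.22, or for Ldha, at -0.27 ± 0.13, with edgeR adjusted p of 0.906 and 0.123. In KO, Slc2a1 fell by 0.46 ± 0.20 (edgeR adjusted p = 0.0486), a call made in 8 of 23 alternatives and lost without any 1 of 11 libraries: those of KO1 and KO2 apart from KO2 tumour 2, and KO3 tumours 2 and 3. Vegfa fell by 0.88 ± 0.23 in KO (edgeR adjusted p = 0.00225) and was at 0.34 ± 0.26 in WT (adjusted p = 0.310), and the KO effect in tumours minus that in cells was -1.16 ± 0.48 for it, with an adjusted p of 0.335 in edgeR.

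A group of members was near absent in culture and present in every tumour. Egln3, the oxygen sensor that HIF itself induces, had 0 counts in the 8 cell libraries and 3.22 to 7.70 CPM in WT tumours. Bounds were taken on the level pooled over the tumours of a genotype, with 3 counts as the floor over its cell libraries. For Egln3 the pooled level was at least 69.3-fold higher in WT tumours and at least 126-fold higher in KO tumours. Eno2, the neuronal enolase, was likewise at 0 in all cells and at least 36.3-fold higher in WT and 55.7-fold higher in KO tumours. Slc2a3, the glucose transporter GLUT3, Ndrg1, a hypoxia-induced gene, and Ndufa4l2, a mitochondrial subunit, were at 0 in WT cells. Pooled over the WT tumours they were at least 42.3-fold, 289-fold and 37.7-fold higher. These bounds do not hold for each tumour, since WT tumour 1 raises the pooled level. Slc2a3 was at 8.81 CPM there and at 0.895 to 1.52 CPM in the other WT tumours. Ndrg1 was at 55.5 CPM there and at 8.31 to 11.1 CPM in the others. Adm, a vasodilator peptide, had 12 counts in the 2 WT cell libraries and rose from 0.187 and 0.420 CPM to 4.06 to 23.0 CPM in WT tumours. Slc16a3, the lactate exporter MCT4, had 7 counts in WT cells and was at 11.9 to 33.6 CPM in WT tumours. Epas1 went from 1.41 and 0.945 CPM to 18.3 to 48.0 CPM. These genes passed the filter on low counts through the tumours alone or nearly so, and Epas1 also through WT cells. Their calls in tumours against cells describe presence against absence or near absence. The endothelial markers were at 0.997 to 1.36 CPM in sum in WT cells, with Cdh5, Kdr, Tek, Cldn5 and Emcn at 0, and at 179 to 314 CPM in WT tumours. Their part in the levels of Epas1 and the others was not tested.

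Fewer members passed the test between KO and WT in tumours than in cells. In KO against WT, 3 of 41 members fell and 0 rose (edgeR), while 2.37% of all 14200 genes were called lower and 1.28% higher. The fold change was negative for 38 of 41, with a median log2 fold change of -0.45 against 0.00 over all genes. Each member's KO and WT ranges overlapped. The members that fell were Arnt, Adm and Pgk1. Arnt was at 48.9 to 66.8 CPM in WT tumours, and in KO tumours at 41.6 CPM at the lowest, 46.3 at the median and 51.5 at the highest, and fell by 0.36 ± 0.08 (edgeR adjusted p = 0.0275). Pgk1 was at 1758, 1622, 1253 and 1486 CPM in WT tumours and at 616 CPM at the lowest, 903 at the median and 1477 at the highest in KO tumours. KO3 tumour 1 lay within the WT range and the other 8 KO tumours below it. Pgk1 fell by 0.75 ± 0.18 (edgeR adjusted p = 0.0355). Adm fell by 2.09 ± 0.50 (edgeR adjusted p = 0.0346), with WT tumours at 23.0, 6.60, 4.06 and 4.55 CPM and KO tumours at 0.837 CPM at the lowest, 1.58 at the median and 6.61 at the highest. WT tumour 1 was far above the rest, and KO3 tumour 1 was the KO library that reached the WT range. Among members that did not pass, Hif1a was at 0.12, Pdk1 at -0.35, Ldha at -0.38, P4ha1 at -0.43, Car9 at -0.68, Epas1 at -0.73 and Vegfa at -0.77 on the log2 scale, with edgeR adjusted p from 0.182 for Ldha to 0.573 for Hif1a.

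These pooled tumour calls were not steady. The count was 1 without WT tumour 1, 0 without WT tumour 2, 1 without WT tumour 4, 1 without KO1 tumour 2 or 3, 0 without KO2 tumour 1, 1 without KO2 tumour 3 and 11 without KO3 tumour 1. It was 0 with the replicate number as a block, with 23 at an unadjusted p under 0.05, and 9 in DESeq2. Bnip3 had a larger fold change than either Arnt or Pgk1, -1.02 ± 0.31, but an adjusted p of 0.0750 in edgeR. Slc2a1 was at -0.81 ± 0.29 (edgeR adjusted p = 0.132), Slc2a3 at -1.43 ± 0.50 (0.125) and Slc16a3 at -0.69 ± 0.30 (0.216), so the transporters were lower without passing.

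Fitted line by line, most calls in tumours were in KO1. The test of the differences among the lines, given below, passed for 2 members, so the counts of the lines are not shown to differ. In KO1 tumours 22 of 41 members fell and 0 rose (edgeR), while 6.86% of all 14483 genes were called lower and 3.71% higher. In KO2 tumours 2 fell and 0 rose, against 2.15% lower and 0.898% higher. In KO3 tumours 0 passed in either direction, against 0.690% and 0.545%, with 10 at an unadjusted p under 0.05 and 1 called in DESeq2; without KO3 tumour 1 the count was 3. The median log2 fold change was -0.77 for KO1, -0.41 for KO2 and -0.26 for KO3. All 3 comparisons share the 4 WT tumours. In KO1 the enzymes had a median of -0.78 with 10 of 16 lower, the other targets a median of -1.04 with 9 of 17 lower, and 1 of 3 transporters, Slc2a1, fell.

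Bnip3 was at 369.7, 301, 249 and 297 CPM in WT tumours and at 105, 73.0 and 74.3 CPM in KO1 tumours, with KO2 at 164, 247 and 145 CPM and KO3 at 279, 143 and 121 CPM. All 3 KO1 tumours lay far below each WT tumour, while KO3 tumour 1 lay within the WT range. The KO1 fall was 1.90 ± 0.29 (edgeR adjusted p = 0.00177). Higd1a was at 131, 122, 95.5 and 101 CPM in WT and 41.3, 56.0 and 50.7 CPM in KO1 tumours, a fall of 1.24 ± 0.17 (edgeR adjusted p = 0.00103). Pgk1, at 616, 738 and 737 CPM in KO1 tumours, fell by 1.18 ± 0.17 (edgeR adjusted p = 0.00137). Slc2a1 was at 187, 123, 105 and 109 CPM in WT and 45.4, 45.8 and 57.1 CPM in KO1 tumours and fell by 1.45 ± 0.32 (edgeR adjusted p = 0.0146). Vegfa was at 76.9, 54.7, 46.5 and 35.6 CPM in WT and 22.2, 17.4 and 17.3 CPM in KO1 tumours and fell by 1.54 ± 0.34 (edgeR adjusted p = 0.0148). For each of these genes the KO1 tumours lay below all WT tumours. Ankrd37, an ankyrin repeat protein induced by HIF, fell by 1.31 ± 0.25 and Pfkp, the platelet form of phosphofructokinase, by 1.21 ± 0.24 (edgeR adjusted p = 0.00650 and 0.00862). Ankrd37 was at 7.35, 7.03, 8.65 and 7.13 CPM in WT and at 2.50, 3.67 and 3.30 CPM in KO1 tumours, whereas KO2 tumours were at 7.65, 9.27 and 5.46 CPM.

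The other calls in KO1 tumours took in most of the enzymes, but not Hk1, Pfkl, Pfkm, Gapdh, Eno1 or Eno2, at adjusted p of 0.0505 for Eno1 to 0.428 for Hk1 in edgeR. Aldoc was at 18.1, 19.6, 14.9 and 19.4 CPM in WT and at 5.82, 7.75 and 8.16 CPM in KO1 tumours, a fall of 1.36 ± 0.23 (edgeR adjusted p = 0.00355). Gpi1, the isomerase of the second step, was at 689, 656, 543 and 571 CPM in WT and at 266, 366 and 389 CPM in KO1 tumours, a fall of 0.90 ± 0.18 (edgeR adjusted p = 0.00839). Ldha was at 1525, 1355, 1236 and 1160 CPM in WT and at 699, 906 and 933 CPM in KO1 tumours, a fall of 0.69 ± 0.16 (edgeR adjusted p = 0.0207). The groups did not overlap for these 3 enzymes. The remaining enzymes called were Aldoa, Hk2, Tpi1, Pgam1 and Pkm, with falls of 1.12, 0.91, 0.80, 0.66 and 0.50 on the log2 scale. Egln3 was at 7.70, 5.15, 3.22 and 4.39 CPM in WT and at 0.874, 1.40 and 1.73 CPM in KO1 tumours, a fall of 1.97 ± 0.45 (edgeR adjusted p = 0.0171), while KO3 tumour 1 was at 7.41 CPM. Adm fell by 2.82, Ak4 by 1.08, Bnip3l, the paralog of Bnip3, by 0.75, P4ha1 by 0.74, Kdm3a by 0.55 and Arnt by 0.38. Car9 was at 3.02, 2.30, 2.21 and 1.33 CPM in WT and at 1.05, 0.583 and 0.471 CPM in KO1 tumours without passing the test, with an adjusted p of 0.0669 in edgeR, although the groups did not overlap.

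Of the 22 calls in KO1 tumours, 8 were made in each of the 20 alternatives: Gpi1, Pfkp, Aldoc, Pgk1, Bnip3, Bnip3l, Ankrd37 and Higd1a. The count was 12 without KO1 tumour 1, 8 without KO1 tumour 2 and 14 without KO1 tumour 3, and it was 22 without WT tumour 1. The calls of Slc2a1 and Pgam1 were lost without KO1 tumour 1 or 2, with adjusted p of at most 0.0621 and 0.0678 over the alternatives. Egln3 and Ldha were lost without KO1 tumour 1 or 2 (at most 0.0689 and 0.0813). Vegfa was lost without KO1 tumour 2 or 3 (at most 0.0636), and Adm without any 1 of the 3 (at most 0.0889). The calls made least often were those of Arnt, called in 7 of the 20 alternatives, P4ha1 in 10 and Pkm in 11. In KO2 tumours Epas1 fell by 1.5 ± 0.29 (edgeR adjusted p = 0.0144), from 18.3 to 48.0 CPM in WT to 9.50, 13.2 and 8.28 CPM, and the groups did not overlap. It was lost without KO2 tumour 1 or KO2 tumour 3, where the adjusted p reached 0.0972, and without KO3 tumour 1 the KO2 count was 4. Pgk1 in KO2 fell by 0.69 ± 0.17 (edgeR adjusted p = 0.0461) and was called in 7 of the 20 alternatives.

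Markers of some host cells moved with the line. Macrophage markers summed to 609 to 766 CPM in KO1 tumours and to 221 to 522 CPM in WT tumours, and 8 fibroblast markers to 1988 to 2988 CPM and 449.6 to 2609 CPM. The fibroblast sums overlapped between these groups. Endothelial markers, at 202 to 230 CPM in KO1 and 179 to 314 CPM in WT tumours, overlapped as well. The part of these cells in the fall of the members in KO1 tumours was not tested. A test of differences among the 3 KO lines in tumours (edgeR) passed for 2 of 41 members, Ankrd37 and Pfkp, against 2.95% of all genes. The F test over the 3 lines gave an adjusted p of 0.0409 for Ankrd37 and 0.0433 for Pfkp in edgeR, and 14 members passed in DESeq2. KO3 minus the mean of KO1 and KO2, to which these p do not belong, was 0.30 for Ankrd37 and 0.77 ± 0.21 for Pfkp. Ankrd37 was at 2.50, 3.67 and 3.30 CPM in KO1 tumours, below every KO2 tumour (7.65, 9.27 and 5.46) and KO3 tumour (7.99, 4.30 and 5.72). Leaving out 1 library gave 0 to 7 members, the latter without WT tumour 1: the Pfkp call held in 4 and the Ankrd37 call in 5 of the 13 such fits.

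**Figure D2:**
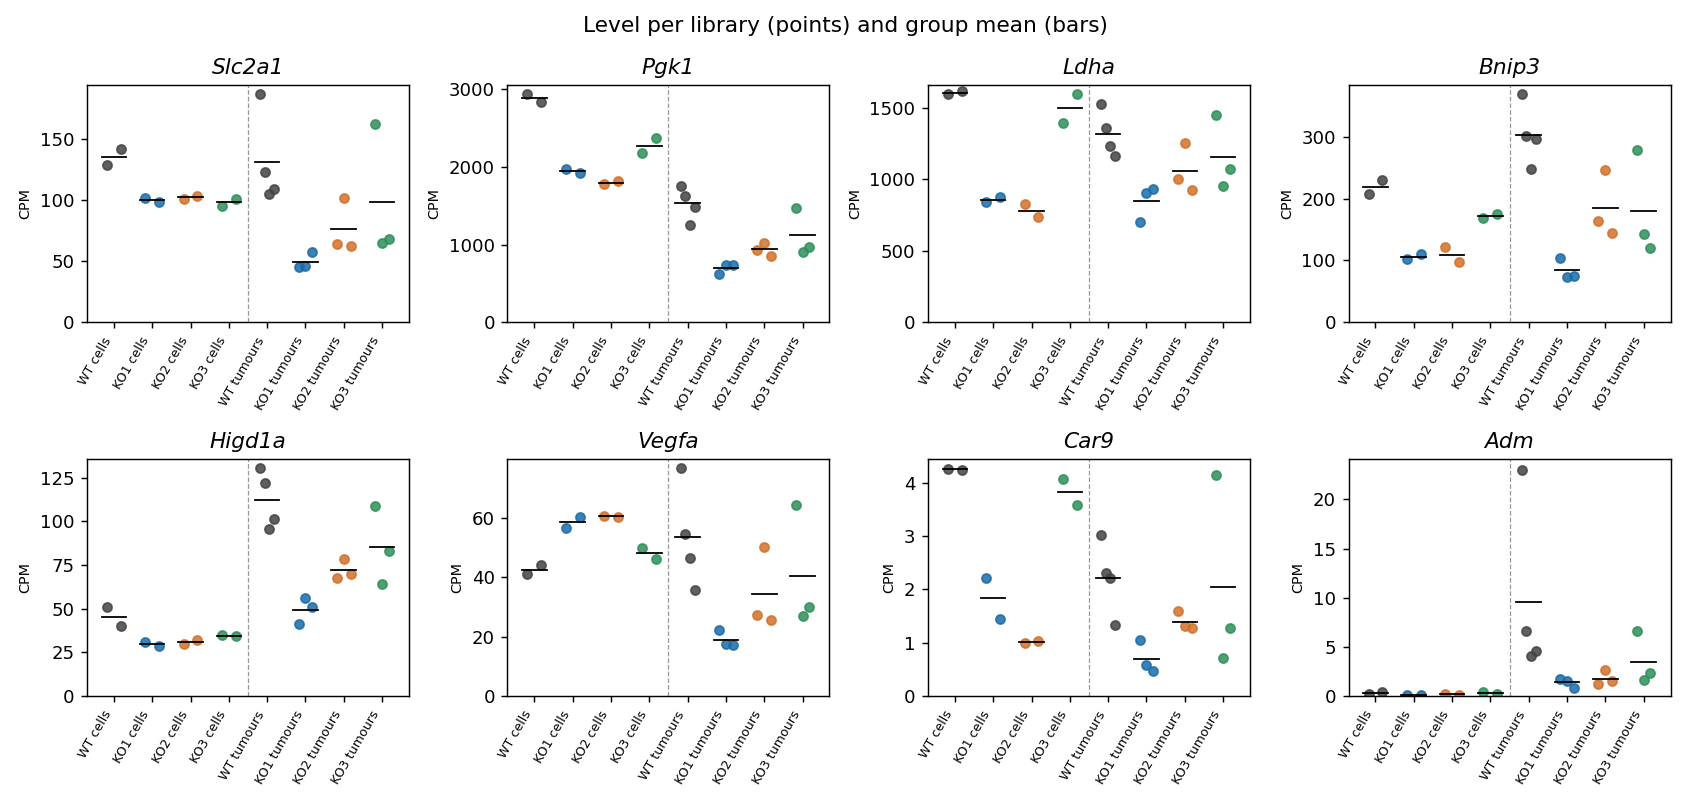
Level in CPM of key members in each library (points) with the group mean (bars), cells left and tumours right of the dashed line. Bnip3, Ldha and Car9 are lower in KO1 and KO2 than in WT and KO3 cells, Slc2a1 is lower in all KO cells, and 1 WT tumour stands far above the others for Adm.

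WT tumour 1 stood apart among these genes. It was the highest of the 13 tumours for 22 of 41 members, against 20.2% of all genes, and the lowest for 0, against 14.8%. Among the 4 WT tumours it was the highest for 31 of 41, against 38.7% of all genes. By role it was highest of the 13 for 3 of 5 factors and sensors, 3 of 3 transporters, 8 of 16 enzymes and 8 of 17 other targets. Slc2a3 was at 8.81 CPM there and 0.895 to 1.52 CPM in the other WT tumours, which is 7.87 times their mean. Ndrg1 was at 55.5 CPM against 8.31 to 11.1 CPM, 5.80 times their mean, and Adm was 4.54 times, Eno2 3.85 times and Slc16a3 2.58 times the mean of the others. Vegfa and Slc2a1 were 1.69 and 1.66 times that mean. The excess did not cover the list: Aldoc and Pfkl were at 1.004 and 1.002 times the mean of the other 3, Hk1 at 1.02 times, and Pdk1 and Ankrd37 at 0.97 times.

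The same library held RNA of other cells. The 12 muscle markers summed to 5279 CPM in it and to 13.5 to 84.7 CPM in the other WT tumours, with Ckm, the muscle creatine kinase, at 826 CPM. Neutrophil markers summed to 354 CPM against 8.70 to 14.6 CPM, with S100a9 at 117 CPM, and erythroid markers to 1299 CPM against 107 to 407 CPM. Adipocyte markers summed to 881 CPM against 157 to 169.8 CPM, fibroblast markers to 2609 CPM against 449.6 to 1174 CPM, and the markers of all leukocytes to 195 CPM against 59.4 to 79.6 CPM. Pfkm, the muscle form of phosphofructokinase, was at 112 CPM there and at 37.9 to 44.0 CPM in the other WT tumours. The part of these cells in the excess of Slc2a3, Ndrg1 and the others was not tested. KO1 tumours held 474 to 1235 CPM of muscle markers and had Pfkm at 38.7 to 48.4 CPM. KO2 tumour 2 held 941 CPM of muscle markers, against 35.2 and 109 CPM in the other KO2 tumours. Its Pfkm was at 54.2 CPM, against 37.9 and 45.1 CPM in the others. The part of muscle in the level of Pfkm was not tested. KO3 tumour 1 had the highest level of 10 members, against 4.08% of all genes, with muscle markers at 21.9 CPM and neutrophil markers at 12.9 CPM. Fibroblast markers summed to 1587 CPM in it, against 719 and 1303 CPM in the other KO3 tumours. Macrophage markers went the other way, at 361 CPM against 423 and 572 CPM. In KO3 tumour 1 Adm, Slc2a1 and Ndrg1 were at 6.61, 162 and 23.3 CPM, against 1.58 and 2.30, 64.7 and 68.0, and 7.65 and 6.56 CPM in the other KO3 tumours. KO1 tumour 1 had the lowest level of 18 members, against 16.7% of all genes.

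**Figure D3:**
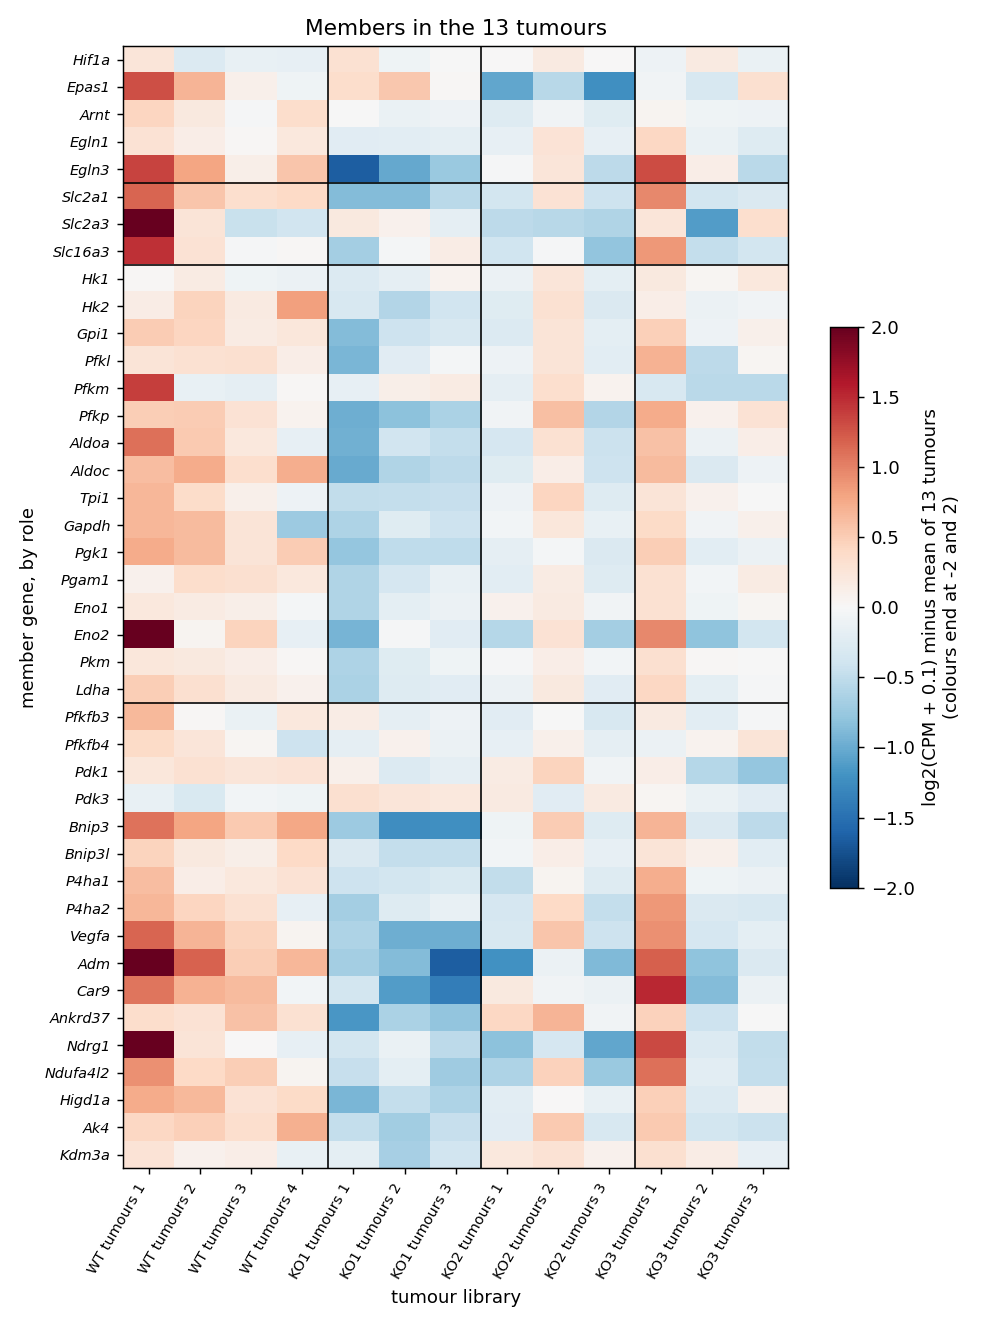
Level of the 41 members in the 13 tumours as log2(CPM + 0.1) minus the mean over the tumours, by role, with colours ending at -2 and 2. WT tumour 1 and KO3 tumour 1 are high across many rows, and the 3 KO1 tumours are low across most.

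Glycolytic enzymes and other HIF targets were also set side by side as means over each list. A score per library was taken as the mean over a list of the log2 CPM difference from WT cells, as a description without a test. In cells the enzymes were at -0.54 in KO1, -0.62 in KO2 and -0.22 in KO3, and the other targets at -0.35, -0.45 and -0.08. In tumours the enzymes were at -0.20 ± 0.22 (SD, n = 4) in WT and at -0.93 ± 0.21, -0.57 ± 0.28 and -0.43 ± 0.30 (SD, n = 3 each) in KO1, KO2 and KO3. The other targets were at 1.20 ± 0.30 in WT tumours and 0.29 ± 0.08, 0.67 ± 0.27 and 0.81 ± 0.51 in KO1, KO2 and KO3 tumours. So in each of the 4 lines the targets stood above the enzymes in tumours, by 1.40 in WT, 1.22 in KO1, 1.24 in KO2 and 1.25 in KO3, and the gap in cells was at most 0.19.

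The size of the gap depended on the genes near absent in culture. Over the 15 enzymes and 14 other targets tested in cells, a choice added after seeing the data, the targets were at 0.28 ± 0.17 in WT tumours. They were at -0.52, -0.06 and -0.04 in KO1, KO2 and KO3 tumours, so on average below WT cells. In KO1, KO2 and KO3 cells the same targets were at -0.35, -0.50 and -0.10. By these means they were lower in tumours than in cells of the same line for KO1 alone. The KO3 tumours, however, ran from -0.30 to 0.45, on both sides of the KO3 cells at -0.11 and -0.10. For KO3 the order of the means therefore does not hold for each tumour. The enzymes were at -0.51 in WT tumours and -1.23, -0.85 and -0.72 in the KO tumours. The gap was then 0.80 in WT and 0.72, 0.79 and 0.69 in KO1, KO2 and KO3 tumours. In KO1, KO2 and KO3 cells it was 0.22, 0.17 and 0.13.

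**Figure D4:**
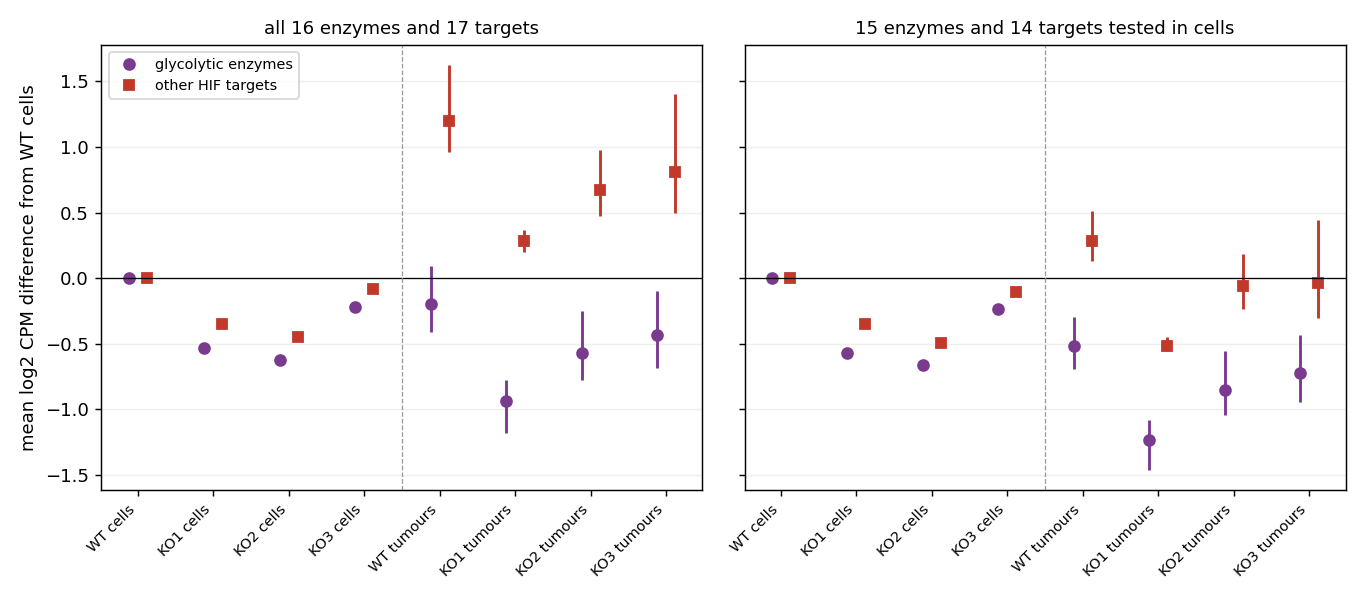
Mean log2 CPM difference from WT cells over the glycolytic enzymes and over the other HIF targets, per group (marks are group means, lines run from the lowest to the highest library), for all members and for those tested in cells. In tumours the other targets lie above the enzymes in each line, and the gap is smaller over members tested in cells.

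Within families of related members, compared as CPM per kilobase of the longest annotated transcript, shares shifted between culture and tumour for several pairs. Hk2 made up 41.2% of the sum of Hk1 and Hk2 in WT cells and 56.9% in WT tumours. In KO1, KO2 and KO3 it was at 41.3%, 39.7% and 37.8% in cells and 44.8%, 49.1% and 47.1% in tumours. Bnip3 made up 59.8% of the sum of Bnip3 and Bnip3l in WT cells and 76.0% in WT tumours. In KO1, KO2 and KO3 it was at 49.5%, 51.1% and 55.7% in cells and 58.6%, 70.2% and 67.5% in tumours. For both pairs the SD of the share within a tumour group was at most 6.55 percentage points. Pfkfb4, set against Pfkfb3, took 10.0% to 11.4% in the groups of cells and 37.5% to 41% in those of tumours. Epas1 per kilobase was 0.608% of the sum of Hif1a and Epas1 in WT cells and 17.5% in WT tumours. Pdk1 took 40.97% of the sum of Pdk1 and Pdk3 in WT cells and 30.5%, 31.1% and 32.3% in KO1, KO2 and KO3 cells. Other families had a fixed leading member: Aldoa over Aldoc, Eno1 over Eno2 and Slc2a1 over Slc2a3 held 98.0% or more in each group. Among phosphofructokinases Pfkl led in each group, with 69.4% in WT cells, 59.2% in KO1, 59.3% in KO2 and 67.2% in KO3 cells.

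Genes of the same pathways outside the list were counted in the same fits. Of 29 further HIF pathway genes tested in cells, 5 fell and 0 rose in KO, with a median log2 fold change of -0.01, while 9.76% of all genes were called lower. They were Mif, a cytokine (-0.75 ± 0.17, edgeR adjusted p = 0.0200), Fam162a, a mitochondrial hypoxia target (-1.02 ± 0.25, adjusted p = 0.0239), Kdm4b, a histone demethylase (-0.36 ± 0.09), Cited2, which competes with HIF for its coactivators (-0.31 ± 0.08), and Insig2 (-0.39 ± 0.11). In tumours, where 2.37% of all genes were called lower, 3 of 32 fell: Cited2 (-0.96 ± 0.20, edgeR adjusted p = 0.0230), Ero1l, an oxidase of the endoplasmic reticulum (-0.66 ± 0.17, adjusted p = 0.0416), and Fam162a (-0.88 ± 0.23, adjusted p = 0.0492). The median over the 32 was -0.34. In KO1 tumours, against 6.86% of all genes, 9 of 33 fell, Fam162a by 1.56 ± 0.20 (edgeR adjusted p = 0.000630) and Cited2 by 1.27 ± 0.26 (adjusted p = 0.0109).

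The share of all genes called lower in KO cells, 9.76%, also stands beside the next counts. Of 15 further genes of glycolysis and gluconeogenesis tested in cells, 1 fell in KO, a smaller share than that: Slc16a1, the lactate transporter MCT1 (-0.39 ± 0.08, edgeR adjusted p = 0.00832). Of 7 genes of the pentose phosphate pathway 2 fell, G6pdx (-0.50 ± 0.10, adjusted p = 0.00774), its entry enzyme, and Pgd (-0.37 ± 0.08, adjusted p = 0.0162). Of 28 genes of pyruvate entry and the citrate cycle, 4 fell and 1 rose in KO cells. Pdk2 and Pdk4, the other kinases that shut pyruvate dehydrogenase down, fell by 0.58 ± 0.09 and 1.13 ± 0.20 (edgeR adjusted p = 0.00230 and 0.00617). Idh3g fell by 0.44 ± 0.08, and Mdh2 by 0.33 ± 0.07. Pdpr, a regulator of the phosphatase that opposes these kinases, rose by 0.47 ± 0.10 (adjusted p = 0.0122). In KO against WT tumours 0 of 20, 0 of 7 and 0 of 28 members of these lists passed in edgeR, with 3, 1 and 1 at an unadjusted p under 0.05.

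Whether the KO effect differed between tumours and cells was tested as an interaction over all 21 libraries. It passed for 0 of 41 members in edgeR, against 0.962% of all genes. An unadjusted p under 0.05 was reached by 3 members, and DESeq2 called 1. Epas1 had the largest difference of those 3: the effect in tumours minus that in cells was 2.10 ± 0.71 on the log2 scale (edgeR adjusted p = 0.208). Its effect in cells rests on near absence, at 0 to 0.267 CPM in KO cells, so the size of this difference is poorly set. Pkm differed by 0.60, with an adjusted p of 0.275 in edgeR. So the larger number of calls in cells is not shown to be a difference in effect.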

How the data were processed

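Polyadenylated RNA of Myc-CaP cells (8 libraries) and tumours (13 libraries) was sequenced with a stranded kit and paired reads, per the labels' protocols. The authors deposited estimated counts per gene, of which 7.96% to 10.2% in a library were not whole. One table is plain and another is scaled for transcript length. Per the submitters' processing notes, the genome build was GRCm38 and the tools were Salmon 1.5.2, STAR and Trim Galore 0.6.7; the sources used here give no settings. GENCODE M21 gave positions for 45143 of the 45706 gene IDs, among them all 41 members.

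Counts of the plain table, rounded to whole numbers, were filtered by filterByExpr and scaled by TMM. edgeR 4.0.16 (R 4.3.3) gave quasi-likelihood F tests, adjusted by Benjamini-Hochberg across the genes tested, with calls made below 0.05, and every adjusted p without another name is edgeR's. KO against WT was fitted by genotype in cells and in tumours, each line and the differences among lines by group, the interaction on all 21 libraries, and tumours against cells within WT and within KO. Levels are CPM with TMM over all 21 libraries, and list scores use log2 CPM with a prior count of 2. A floor of 3 counts stood for a count of 0 and covers counting error only. The fits were tested on simulated data. Figures were drawn with matplotlib 3.10.9 in Python 3.11.15.

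The rule gave Hif1a, Epas1, Slc2a1, Pgk1, Ldha, Pdk1, P4ha1, Vegfa, Adm and Car9 always and, in each comparison, up to 20 members that passed with the smallest p, and of further pathway lists the 3 with the smallest p. Other genes were named after their values were seen. The members, lists and tests were chosen with earlier results of these data known. Alternatives covered DESeq2 1.42.0, RLE scaling, leaving the filter out, length scaling, a replicate block, limma 3.58.1 with the line as a random block, sums per line, muscle markers as a covariate, and leaving out each library or line. Replicate numbers did not pair the samples: deviations of same-numbered libraries correlated at -0.0517 to 0.150 in cells and at -0.394 to 0.163 in tumours. WT tumours 3 and 4 carry the same number in their descriptions, and 1 alternative summed them. One marker of the line is not reported here.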

Additional observations from a re-analysis of the deposited data

Results flagged for a closer look

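In WT tumours, 6 members had 1 library far from the other 3, with a gap to the nearest that exceeded the 95% critical value of Dixon's ratio, a test that chance passes in about 1 of 20 groups. In each case the library was WT tumour 1. The 6 are 14.6% of the members. Of all 14200 genes tested in tumours, 10.8% had such a library among the WT tumours, and for 7.81% it was WT tumour 1. Slc2a3 (GLUT3) was at 8.81 CPM there, Slc16a3 (MCT4) at 33.6 CPM, Adm at 23.0 CPM and Ndrg1 at 55.5 CPM. The enolase Eno2 was at 6.04 CPM and Pfkm, the muscle phosphofructokinase, at 112 CPM. The library also held 5279 CPM of muscle markers and 354 CPM of neutrophil markers, whose part in these levels was not tested. Leaving it out took the members called in KO against WT tumours from 3 to 1, and left 22 called in KO1 tumours.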

How the results depend on the processing

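Members past the threshold in KO against WT cells numbered 13, and 8 without line KO2, 28 without line KO3, 27 with lines as groups, 4 with the line as a random block (limma voom) and 0 with libraries summed per line (12 at an unadjusted p under 0.05). In KO against WT tumours the count of 3 became 9 in DESeq2, 0 without line KO1, 0 without line KO2, 9 without line KO3, 12 with lines as groups, 0 with the random block, 0 with sums per line, 6 with muscle markers as a covariate and 0 without WT tumours 1 and 4 together. The 2 calls in KO2 tumours became 6 in DESeq2, 1 without a filter, 4 in the length-scaled table and 6 with the muscle covariate, and DESeq2 called 1 in KO3 tumours, where edgeR called 0. Differences among lines in tumours, 2 in edgeR, became 14 in DESeq2, 4 without a filter and 1 in the length-scaled table. The interaction had 1 call in DESeq2. The causes were not tested. The share of all genes called in these and the other alternative fits is not given here. A change in a count is therefore not read as particular to the members.

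Leaving out 1 library gave 2 to 22 members in KO against WT cells, 0 to 11 in KO against WT tumours, 13 to 21 for differences among lines in cells, 0 to 7 in tumours, 4 to 14 in KO3 cells, 8 to 24 in KO1 tumours, 0 to 4 in KO2 tumours, 0 to 3 in KO3 tumours, 13 to 27 in WT tumours against WT cells and 0 to 0 for the interaction. With the replicate number as a block, although the numbers do not pair the samples, the counts were 11 in KO against WT cells, 0 in tumours, 20 and 0 for differences among lines in cells and tumours, 1 in KO2 tumours, 20 in KO1 tumours and 0 for the interaction. Of the values of single genes under alternatives, 2843 kept their direction and side of the threshold, 367 lost a call, 19 gained one and 1 reversed: Pdk1 in KO tumours against KO cells was at -0.00894 in the length-scaled table.

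The scores moved beyond 1 SD as follows. With RLE scaling, the enzymes in KO1 cells were at -0.55 and the other targets in KO3 cells at -0.064. With a prior count of 0.5, the targets were at -0.056 in KO3 cells and 0.52 in KO1 tumours, and the gap between targets and enzymes was 0.16 in KO2 cells, 1.53 in WT tumours and 1.37 in KO2 tumours. In the length-scaled table the enzymes were at -0.52 in KO1 cells, the targets at -0.046 in KO3 cells, and the gap was 0.14 in KO1 cells, 0.13 in KO2 cells and 1.25 in KO2 tumours. The next 2 choices were made after seeing the data. Over members tested in cells the enzymes were at -0.57 and -0.66 in KO1 and KO2 cells, -0.51 in WT tumours and -1.23 and -0.85 in KO1 and KO2 tumours. The targets were at -0.50 and -0.10 in KO2 and KO3 cells, 0.28 in WT tumours and -0.52, -0.057 and -0.037 in KO1, KO2 and KO3 tumours, and the gap was 0.80, 0.72, 0.79 and 0.69 in WT, KO1, KO2 and KO3 tumours. With the median over members in place of the mean, the enzymes were at -0.59 and -0.16 in KO1 and KO3 cells and -0.43 in WT tumours. The targets were at -0.44 and -0.047 in KO1 and KO3 cells, and at 0.37, -0.35, 0.024 and 0.065 in WT, KO1, KO2 and KO3 tumours. The gap was 0.22 in KO2 cells and 0.80, 0.74, 0.70 and 0.66 in WT, KO1, KO2 and KO3 tumours.

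The 2 WT cell libraries and the 7 members with few or no counts in cells limit what can be called there.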
